A study of Mus musculus with 9 samples.

Results

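Cornified envelope genes were followed in the conjunctiva of mice, a mucosal epithelium with its stroma inside the eyelids and over the front of the globe, during ocular allergy. The set was chosen by symbol: every gene of the small proline-rich (Sprr), late cornified envelope (Lce), kallikrein (Klk) and transglutaminase (Tgm) families, and a list of single genes of late epidermal differentiation, such as Ivl, Sbsn, Casp14 and Spink5. It holds 35 of the 20603 genes in the count table. They include 8 of the 17 Sprr genes that RefSeq lists, 1 of the 21 Lce genes, 9 of the 37 Klk genes and 6 of the 7 Tgm genes. The other members of these families and Flg, Flg2 and Hrnr are not analysed here. After a filter on low counts 23 of the 35 were tested, beside 15613 genes in all. The 12 that did not pass are Crnn, Rptn, Klk1, Klk1b26, Klk12, Klk14, Krtdap, Sprr1b, Sprr2d, Sprr2h, Tgm3 and Tgm7, and their counts are given without a test.

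The cornified envelope is a sheet of cross-linked protein that forms beneath the membrane of a keratinocyte as it dies at the surface of the skin. Transglutaminases join scaffold proteins such as involucrin, loricrin and the small proline-rich proteins through bonds between glutamine and lysine, lipids are attached to the outside, and kallikrein proteases, held in check by inhibitors such as that encoded by Spink5, later cut the junctions so that dead cells are shed. The conjunctiva is a mucosal epithelium that does not normally cornify, and several of these genes, above all the Sprr genes, are known to be induced in mucosal epithelia by inflammation or dryness.

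The mice were on a C57BL/6J background, and 3 groups of 3 libraries were sequenced, each library made from the pooled conjunctiva of 3 mice. Both control groups were Vegfr3 fl/fl littermates without Cre, and the knockouts, Vegfr3iLECko, were Vegfr3 fl/fl;Prox1CreERT2 mice, in which the Prox1 promoter drives a tamoxifen-inducible Cre recombinase that removes the floxed Vegfr3 (Flt4) from lymphatic endothelium and any other cell that expresses Prox1. Tamoxifen was injected intraperitoneally 5 times at 75 mg/kg in week 5 in every group. In week 6 every group was then immunized with aluminum hydroxide (5 mg), pertussis toxin (PTX, 0.3 µg) and ovalbumin (OVA, 250 µg). Challenged controls and challenged knockouts then had OVA drops, 250 µg in 5 µL, in the right eye once a day for 28 days, starting after 14 days, with saline in the other eye. From which animals, or from which of their eyes, the unchallenged pools were made is not labelled. P-values measure the spread between pools, and in bulk tissue fewer cells of a type and less RNA per cell cannot be told apart.

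Total counts ran from 16490050 to 24746836 per library, and levels below are CPM, counts scaled to the size of each library with TMM factors. Flt4 was at 13.5 to 26.7 CPM in the unchallenged controls, 13.3 to 20.2 CPM in the challenged controls and 13.0, 5.07 and 5.31 CPM in knockout replicates 1, 2 and 3, a log2 fold change of -1.20 between the challenged groups (SE 0.40, edgeR p adjusted over all genes tested by Benjamini-Hochberg = 0.468). The mucosal keratin genes Krt4 and Krt13 were at 2125 CPM or more in every library, while the summed level of 4 epidermal keratin genes (Krt1, Krt10, Krt77, Krt78) was 28.2 to 73.7 CPM. A pair of libraries stood apart. Challenged control 1 had 354 CPM of Il1b, against 0.629 to 14.7 CPM in the other 8. It held the highest level of 14 of 15 listed genes of cytokines that act on epithelium, against 22.3% of all genes tested. Challenged knockout 1 had a summed level of 345 CPM over 6 genes of meibomian and sebaceous gland, against 1.78 to 4.45 CPM elsewhere, and of 176 CPM over 9 genes of the hair follicle, against 9.27 to 19.0 CPM. The labels give no batch.

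Sequences before the start sites are shown first because the Sprr genes tested, with Lce3a, had the largest differences with challenge among the tested members, and because they fall into sets by the letters they share. The 8 Sprr genes measured lie within a run of 13 neighbouring Sprr genes on chromosome 3. Each line gives the 250 bases before the RefSeq start, 5′ to 3′ on the gene's own strand, in build GRCm38.p6. Capitals mark TGANTCA, the letters bound by AP-1 (Fos and Jun proteins), TTCNNNNGAA, the spacing preferred by STAT6, and the TATA box TATAAA.
Sprr1a, chr3:92485882-92486131, minus strand: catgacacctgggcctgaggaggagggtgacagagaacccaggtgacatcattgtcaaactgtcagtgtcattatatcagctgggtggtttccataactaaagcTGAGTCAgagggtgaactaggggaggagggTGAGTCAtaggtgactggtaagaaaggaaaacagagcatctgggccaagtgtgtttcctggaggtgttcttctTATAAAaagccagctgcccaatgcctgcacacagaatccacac
Sprr2d, chr3:92338890-92339139, plus strand: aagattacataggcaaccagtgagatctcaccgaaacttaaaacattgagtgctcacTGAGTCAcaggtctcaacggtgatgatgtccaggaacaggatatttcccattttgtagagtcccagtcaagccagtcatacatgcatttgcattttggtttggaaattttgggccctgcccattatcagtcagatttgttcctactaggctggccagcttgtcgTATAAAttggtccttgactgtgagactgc
Sprr2f, chr3:92364937-92365186, plus strand: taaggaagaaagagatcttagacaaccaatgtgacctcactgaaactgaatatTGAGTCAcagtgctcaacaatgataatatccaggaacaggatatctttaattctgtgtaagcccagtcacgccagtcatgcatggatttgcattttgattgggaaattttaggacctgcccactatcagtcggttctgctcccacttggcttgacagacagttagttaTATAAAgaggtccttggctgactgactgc
Sprr2h, chr3:92385435-92385684, plus strand: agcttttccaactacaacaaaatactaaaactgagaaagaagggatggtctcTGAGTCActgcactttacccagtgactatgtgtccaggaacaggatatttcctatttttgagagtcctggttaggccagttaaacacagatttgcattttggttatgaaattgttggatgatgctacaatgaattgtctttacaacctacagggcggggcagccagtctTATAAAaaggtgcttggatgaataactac
Sprr2a1, chr3:92215585-92215834, plus strand: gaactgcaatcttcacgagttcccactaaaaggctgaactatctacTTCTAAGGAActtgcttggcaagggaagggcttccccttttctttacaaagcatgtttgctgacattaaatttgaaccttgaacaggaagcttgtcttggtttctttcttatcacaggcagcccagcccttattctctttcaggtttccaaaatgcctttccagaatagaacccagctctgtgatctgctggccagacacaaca
Sprr2a3, chr3:92285054-92285303, plus strand: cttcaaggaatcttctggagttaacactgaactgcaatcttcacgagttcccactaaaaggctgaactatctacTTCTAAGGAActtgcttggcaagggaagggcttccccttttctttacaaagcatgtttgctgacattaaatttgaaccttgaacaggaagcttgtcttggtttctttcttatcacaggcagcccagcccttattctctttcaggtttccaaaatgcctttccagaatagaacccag

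Sprr1a, Sprr2d, Sprr2f and Sprr2h each hold TGANTCA and a TATA box, and Sprr1b, whose TGANTCA begins 111 bases before the start, also does. The first base of TGANTCA lies 146 and 116 bases before the start of Sprr1a, 193 before that of Sprr2d, 197 before Sprr2f and 198 before Sprr2h. Sprr2a1 and Sprr2a3 hold neither and instead hold TTCNNNNGAA, 204 and 176 bases before the start. Sprr2a2 is not printed because its window of 300 bases, which runs 50 bases past the start, is identical to that of Sprr2a1, and Sprr2a3 shares an unbroken run of 272 bases with both. Searched on both strands, TGANTCA occurred in 7.81% of 32851 windows of 300 bases, TATAAA in 13.6% and TTCNNNNGAA in 6.95%. Of the 33 members with a window in use, 11 hold TGANTCA: the 5 Sprr genes named and Crnn, Ivl, Krtdap, Lor, Rptn and Sbsn. A chromosome excluded for the members was kept among the 32851 windows. In the Sprr windows no match to one of these motifs overlapped a match to another. Start sites of the Sprr2a genes differ between annotations: the GENCODE start of Sprr2a1 lies 36 bases before the RefSeq one, and the starts of Sprr2a3 and Sprr2a2 lie 100 bases or more away. A match describes letters in the reference genome, binding was not measured, and no relation between these letters and the levels was tested.

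With challenge, the 5 Sprr genes tested were higher in all 3 challenged controls than in any unchallenged control, but none of the 23 members passed the test over all genes. The edgeR quasi-likelihood test called 0 of 23 members at an adjusted p of 0.05 and 0.064% of all genes (10 of 15613). That number of genes ranged from 0 to 121 with 1 library left out. With the replicate number as a block, which compares libraries of the same number, edgeR called 0 members and 1.71% of genes. DESeq2, another count model with its own filter, called 1 of 28 members, Sprr1a, and 4.66% of genes. At an unadjusted p under 0.05, 8 of 23 members were higher and 0 lower, against 6.77% of all genes higher and 5.65% lower: Sprr1a, Sprr2a1, Sprr2a2, Sprr2a3, Sprr2f, Lce3a, Spink5 and Klk11. The 2 control groups did not overlap for 7 members that were higher with challenge (30.4%, against 7.21% of all genes) and 1 that was lower (4.35%, against 8.5%). Sprr2a1, Sprr2a2 and Sprr2a3 share transcript sequence, so they are not separate results in these shares. The median log2 fold change over the 23 members was 0.90, and 20 of the 23 were above 0; over all genes tested the median was -0.01 and 48.5% were above 0. Genes that did not pass the filter on low counts are not in these shares, so the shares do not describe all 35.

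**Figure D1:**
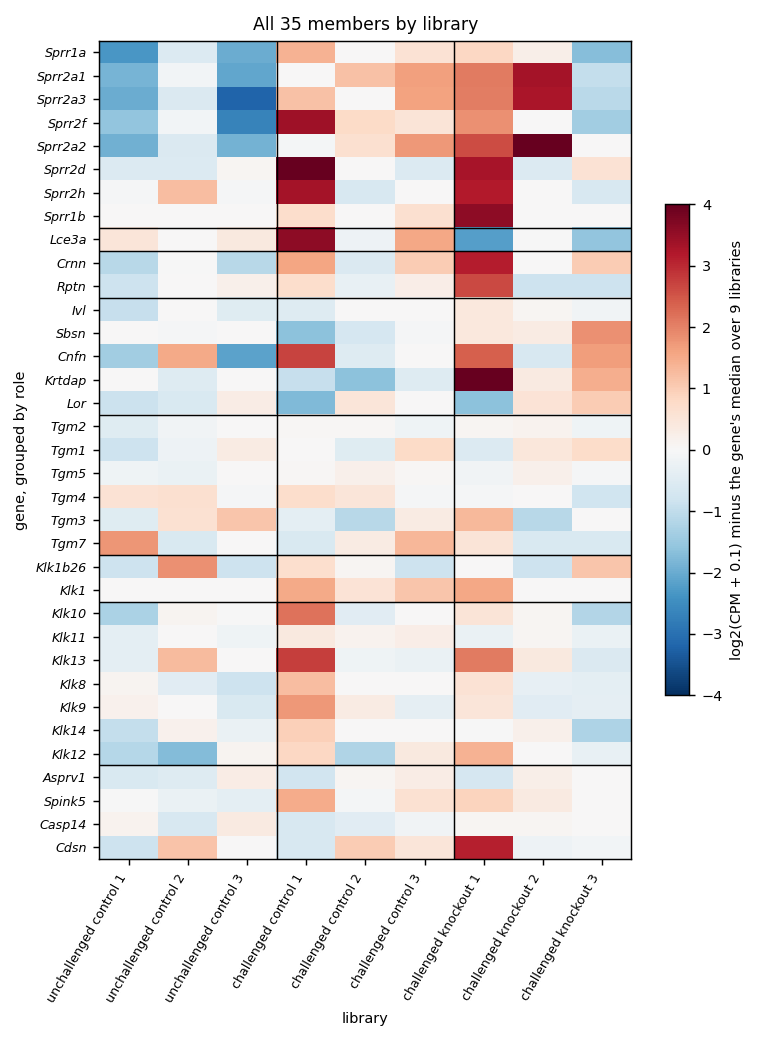
Level of each of the 35 cornified envelope genes (rows, grouped by role) in each of the 9 libraries (columns), as log2(CPM + 0.1) minus the gene's median over the 9 libraries, so that red is above and blue below that median. Challenged control 1 is the highest library for 14 of the 35 genes and challenged knockout 1 for 9. Among the 23 tested, the former is highest for 11 (47.8%, against 22.3% of all genes tested). The latter is highest for 2 of these (8.70%, against 6.79%), and its other genes did not pass the filter on low counts.

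Sprr1a encodes a cross-bridging protein of the envelope that is known for its induction by stress. It was the most abundant Sprr gene, and in the unchallenged controls also per length of merged exons. Its level was 13.5, 46.5 and 17.0 CPM in replicates 1, 2 and 3 of the unchallenged controls, 179, 68.1 and 101 CPM in those of the challenged controls, and 121, 80.0 and 21.0 CPM in those of the challenged knockouts. The control groups did not overlap, and knockout 3 was at the level of the unchallenged controls. Sprr1a was 4.50-fold higher with challenge (log2 fold change 2.17, SE 0.66, edgeR adjusted p = 0.195), and DESeq2 gave an adjusted p of 0.00913. Between challenged knockouts and challenged controls it had a log2 fold change of -0.65 (SE 0.63, adjusted p = 0.789).

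Sprr2f, a further cross-bridging protein gene, was at 0.784, 2.33 and 0.315 CPM in the unchallenged controls, 27.7, 4.39 and 3.70 CPM in the challenged controls and 9.22, 2.53 and 0.914 CPM in the challenged knockouts, in the order of replicates 1 to 3. Again no challenged control was as low as an unchallenged one, and replicate 1 was the highest library of both challenged groups. The log2 fold change with challenge was 3.34 (SE 1.09, edgeR adjusted p = 0.224), and 1.79 without challenged control 1. Between genotypes under challenge it was -1.48 (SE 0.999, adjusted p = 0.719) and was 0.07 without challenged control 1.

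Sprr2a1, Sprr2a2 and Sprr2a3 encode near-identical proteins, and reads from them are hard to assign: 92.5%, 92.8% and 36.2% of the 100-base stretches of their transcripts occur in another gene's transcripts. Their rows are therefore uncertain one by one, and their sum is the firmer value. Their sum was 3.14, 10.1 and 2.20 CPM in the unchallenged controls (replicates 1, 2 and 3), 18.5, 22.0 and 39.9 CPM in the challenged controls and 55.9, 135 and 6.80 CPM in the challenged knockouts. The challenged controls all lay above the unchallenged ones, and the knockouts ranged from within the unchallenged controls to above every control. The log2 fold change of the sum was 2.37 with challenge (SE 0.90, edgeR adjusted p = 0.303), 1.30 between genotypes under challenge (SE 0.85, adjusted p = 0.715) and 3.67 between challenged knockouts and unchallenged controls (SE 0.94, adjusted p = 0.999).

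Taken one by one, Sprr2a1 was at 1.78, 6.20 and 1.52 CPM, then 6.67, 15.3 and 20.9 CPM, then 28.3, 67.2 and 3.37 CPM in unchallenged controls, challenged controls and challenged knockouts. Sprr2a3 was at 1.10, 3.06 and 0.420 CPM, then 10.7, 4.66 and 14.5 CPM, then 19.5, 45.5 and 2.17 CPM. Sprr2a2 was at 0.261, 0.803 and 0.262 CPM, then 1.17, 2.02 and 4.44 CPM, then 8.13, 22.7 and 1.26 CPM. In all 3 genes knockout 2 was the highest library and knockout 3 the lowest of its group. Their log2 fold changes with challenge were 2.16 (SE 0.92), 2.67 (SE 0.98) and 2.46 (SE 0.97), with edgeR adjusted p-values of 0.371, 0.283 and 0.319. Between genotypes under challenge they were 1.20, 1.17 and 2.07, and without challenged knockout 2 they were 0.15, 0.13 and 0.89.

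**Figure D2:**
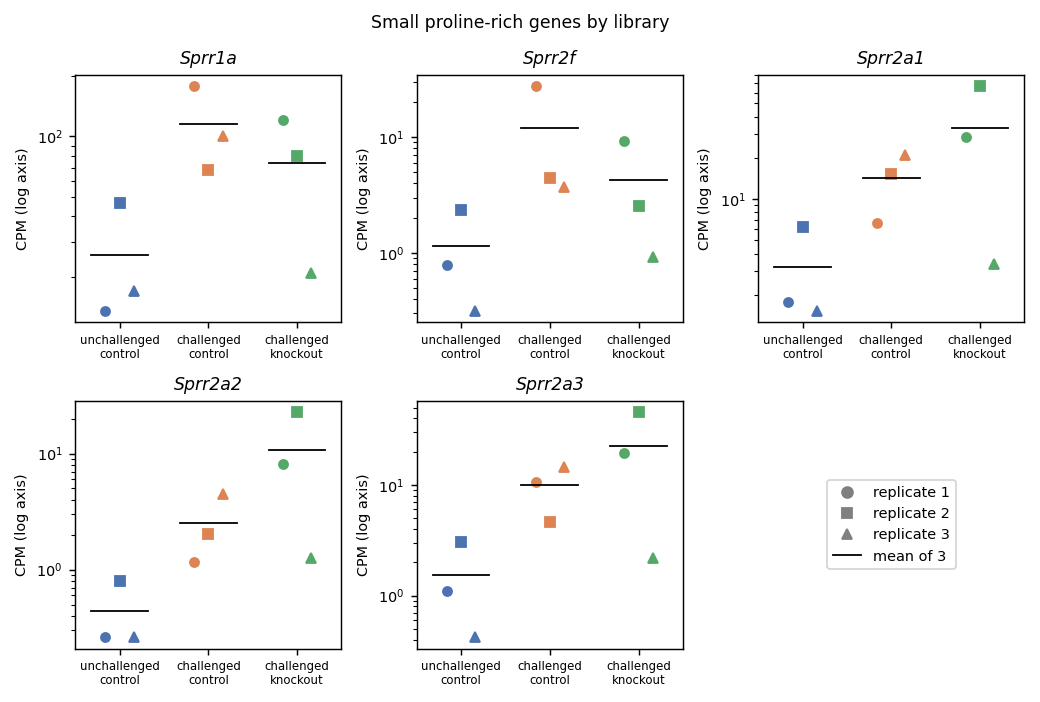
CPM (log axis) of Sprr1a, Sprr2f, Sprr2a1, Sprr2a2 and Sprr2a3 in the 9 libraries, with a symbol for each replicate number and a bar at the mean of each group of 3. In every panel the 3 challenged controls lie above the 3 unchallenged controls, and the challenged knockouts spread from near the unchallenged level to the level of the challenged controls or above it.

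The 3 other Sprr genes did not pass the filter on low counts. They are described because most of their counts lay in challenged control 1 and challenged knockout 1, or for Sprr1b in the latter alone. That choice was made after their values were seen. Sprr2d had 53 counts in challenged control 1 and 34 in challenged knockout 1, against 0 to 2 in the other 7 libraries. Sprr2h had 24 and 34 counts in those libraries and 0 to 7 elsewhere. Sprr1b had 28 counts in challenged knockout 1 and 0 or 1 in the other 8. For Sprr1a and Sprr2f the highest 2 libraries were also challenged control 1 and challenged knockout 1. Sprr2a1, Sprr2a2 and Sprr2a3 had their highest 2 levels in challenged knockouts 2 and 1. Summed over all 8 Sprr genes, levels were 17.5, 59.2 and 19.7 CPM in the unchallenged controls, 230, 94.5 and 145 CPM in the challenged controls and 190, 218 and 28.9 CPM in the challenged knockouts.

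Lce3a, the late cornified envelope gene measured, belongs to a subfamily known to be induced on skin injury and in psoriasis. It was at 0.784, 0.536 and 0.734 CPM in the unchallenged controls, 7.48, 0.448 and 1.77 CPM in the challenged controls and 0.0389, 0.530 and 0.114 CPM in the challenged knockouts. Challenged control 1 stood far above the rest, challenged control 2 was below all 3 unchallenged controls, and the knockouts had 1, 9 and 2 counts. The log2 fold change with challenge was 2.23 (SE 0.98, edgeR adjusted p = 0.391) and was 0.68 without challenged control 1. Between genotypes under challenge it was -3.86 (SE 1.10, edgeR adjusted p = 0.376), a difference that DESeq2 called (adjusted p = 0.0135), and it was -2.31 without challenged control 1.

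Crnn and Rptn encode cornulin and repetin, fused S100 proteins of the outer epidermis and upper digestive epithelium, and both were near the floor of detection. In the order of replicates 1 to 3, Crnn had 0, 3 and 0 counts without challenge, 9, 1 and 6 counts in challenged controls and 47 (1.83 CPM), 2 and 6 in challenged knockouts. Rptn had 0, 2 and 2 counts, then 3, 1 and 2, then 26 (1.01 CPM), 0 and 0. Challenged knockout 1 was the highest library for both. Here 3 counts, the most that a count of 0 allows, correspond to 0.115 to 0.185 CPM, and this limit covers counting error only.

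Among the scaffold and late genes, Sbsn had its lowest levels in challenged controls and its highest in the knockouts, but neither difference passed the edgeR test. Sbsn encodes suprabasin, a secreted protein of suprabasal keratinocytes. It was at 4.23, 4.13 and 4.25 CPM in the unchallenged controls, 1.30, 2.60 and 4.10 CPM in the challenged controls and 5.68, 5.36 and 15.4 CPM in the challenged knockouts. No group overlapped another, although challenged control 3 lay just below the unchallenged controls. The log2 fold change was -0.65 with challenge (SE 0.50, edgeR adjusted p = 0.698) and 1.72 between genotypes under challenge (SE 0.50, edgeR adjusted p = 0.383, DESeq2 adjusted p = 0.0384). Without challenged knockout 3 the difference between genotypes was 1.05. Of its 100-base transcript stretches 4.87% also lie in the antisense-named gene Tmem147os on the same strand, which was at 0.855 to 2.19 CPM.

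Ivl, for involucrin, an early scaffold protein, was at 4.08, 7.92 and 5.61 CPM in the unchallenged controls, 5.44, 7.97 and 7.86 CPM in the challenged controls and 10.6, 8.31 and 7.08 CPM in the challenged knockouts. All groups overlapped, with log2 fold changes of 0.27 with challenge (SE 0.31) and 0.29 between genotypes (SE 0.31). Cnfn, which encodes cornifelin, varied more within groups than between them, at 0.418, 3.75 and 0.210 CPM, then 8.78, 0.851 and 1.25 CPM, then 7.04, 0.766 and 4.17 CPM. Its log2 fold change with challenge was 1.27 (SE 1.18, edgeR adjusted p = 0.775) and -0.50 without challenged control 1. Lor, the gene of loricrin, the main protein of the epidermal envelope, was at 1.03 CPM or less in every library.

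Krtdap, a keratinocyte differentiation gene, was picked out after its values were seen. It did not pass the filter on low counts, since most of its counts lay in 1 library. It had 392 counts (15.2 CPM) in challenged knockout 1, 13 counts in knockout 3 and 0 to 5 counts in the other 7 libraries. DESeq2, which has another filter, called it higher in the knockouts against both control groups, for a gene whose highest library was at 20.5 times the next. Cdsn, for corneodesmosin, an adhesion protein of cornified cells named for the same reason, was at 6.22 CPM in challenged knockout 1 and at 1.49 CPM or less elsewhere. That library was the highest for 2 of the 23 tested members, Cdsn and Ivl (8.70%), a share near the 6.79% of all genes tested. It was also the highest for 7 of the 12 untested members, for which there is no such background. All 6 meibomian genes and 8 of the 9 hair follicle genes were highest there as well, with Krt35 at 0 counts in all 6 control libraries and 4.32 CPM in that library. Among 16 genes of envelope lipid synthesis, 8 were highest there, such as Elovl4, for very long fatty acids, at 150 CPM against 1.05 CPM or less. The part of these tissues in the result was not tested.

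**Figure D3:**
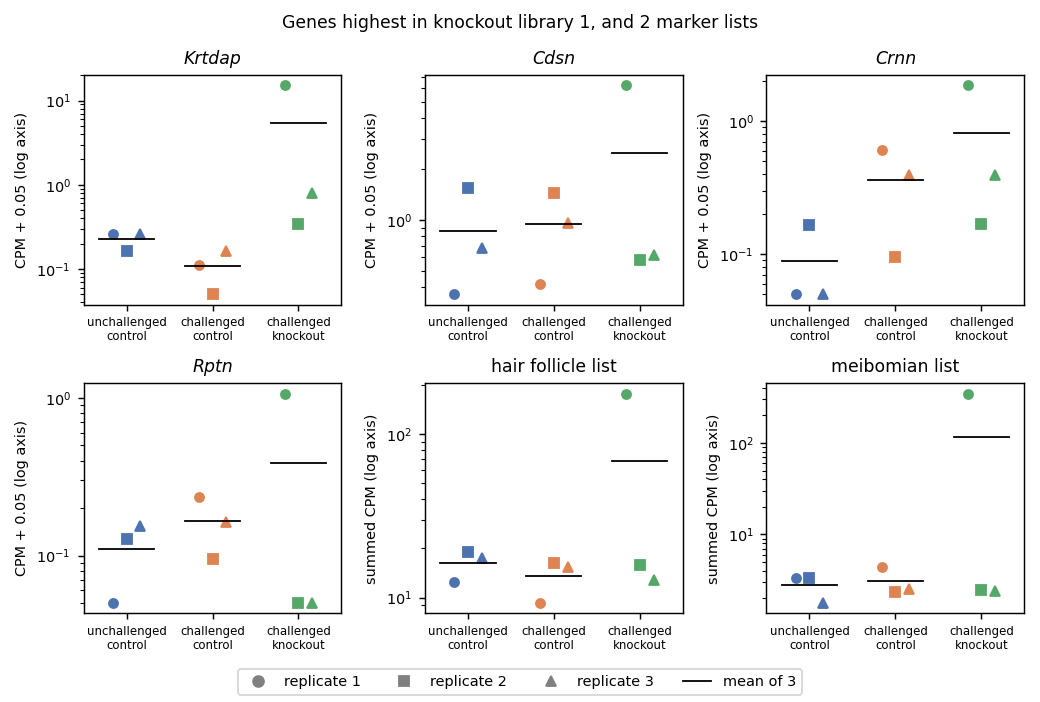
CPM + 0.05 (log axis) of Krtdap, Cdsn, Crnn and Rptn and summed CPM (log axis) of the hair follicle and meibomian gene lists in the 9 libraries, by group, with a symbol for each replicate number and a bar at the mean of 3. Challenged knockout 1 is the highest library in all 6 panels.

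Of the 6 transglutaminase genes, whose products make the cross-links, Tgm2, Tgm1 and Tgm5 were abundant, and their groups overlapped or lay close together. Tgm2, the widely expressed tissue transglutaminase, was at 221, 282 and 311 CPM in the unchallenged controls, 320, 319 and 279 CPM in the challenged controls and 325, 340 and 278 CPM in the challenged knockouts. Tgm1, the main envelope enzyme of keratinocytes, was at 41.8, 63.7 and 92.7 CPM, then 73.7, 52.9 and 126 CPM, then 50.4, 100.5 and 122 CPM. Both overlapped between all groups. Tgm5, an epidermal enzyme, was at 51.0, 48.1 and 57.2 CPM, then 58.7, 66.0 and 59.7 CPM, then 52.3, 65.6 and 55.5 CPM, so that the challenged controls lay just above the unchallenged ones. The log2 fold changes with challenge were 0.17 (SE 0.17) for Tgm2, 0.35 (SE 0.41) for Tgm1 and 0.24 (SE 0.14) for Tgm5, with edgeR adjusted p-values of 0.789, 0.839 and 0.579. Between genotypes all 3 lay within 0.11 of 0 on the log2 scale. Tgm1 and Tgm2 overlap genes on the other strand, and since no source used here gives the strand of the reads, reads of those partners cannot be told apart from theirs. Tgm3, Tgm4 and Tgm7 were at 1.30 CPM or less in every library.

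Kallikreins 8 to 14 of this set belong to a family of which some members in skin cut the proteins that hold dead cells together. They are encoded by 7 adjacent genes. The 5 of them that were tested were all above 0 with challenge, with a median log2 fold change of 1.03. All were below 0 between genotypes under challenge, with a median of -0.51. The 2 contrasts share the challenged controls. Klk10 was at 9.93, 26.0 and 23.4 CPM in the unchallenged controls, 108, 17.5 and 23.9 CPM in the challenged controls and 34.5, 25.5 and 10.6 CPM in the challenged knockouts. Klk13 was at 2.30, 7.46 and 3.04 CPM, then 21.3, 2.69 and 2.51 CPM, then 13.0, 4.01 and 2.0 CPM. For both, challenged control 1 was highest and challenged knockout 1 next, while challenged controls 2 and 3 lay among the unchallenged controls. The log2 fold change with challenge was 1.33 for Klk10 (SE 0.69, edgeR adjusted p = 0.507) and 1.03 for Klk13 (SE 0.93, adjusted p = 0.762); without challenged control 1 these were 0.06 and -0.72, and the differences between genotypes, -1.07 and -0.46 with all libraries, were 0.19 and 1.29.

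Klk11 differed less but more evenly, at 13.8, 18.0 and 16.2 CPM in the unchallenged controls, 23.7, 20.0 and 21.9 CPM in the challenged controls and 14.9, 19.1 and 14.9 CPM in the challenged knockouts. The challenged controls lay above both other groups. Its log2 fold change was 0.45 with challenge (SE 0.19, edgeR adjusted p = 0.359) and -0.42 between genotypes under challenge (SE 0.19, adjusted p = 0.588), and it stayed between 0.35 and 0.54 and between -0.55 and -0.36 with any 1 library left out. Klk8, whose reads can mix with those of an overlapping gene on the other strand, was at 3.20 to 13.6 CPM and Klk9 at 0.420 to 2.53 CPM, both highest in challenged control 1. Klk12 and Klk14 were at 0.865 CPM or less in every library. Klk1, the kinin-forming tissue kallikrein, had 0 counts in each unchallenged control, 3, 1 and 2 in the challenged controls and 5, 0 and 0 in the challenged knockouts. Klk1b26, of its mouse-specific subfamily, had 0, 14 and 0 counts, then 3, 2 and 0, then 2, 0 and 5. Both were too low to compare.

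Spink5, whose product LEKTI inhibits some kallikreins of skin, was at 29.3, 24.5 and 22.4 CPM in the unchallenged controls, 83.7, 28.0 and 45.4 CPM in the challenged controls and 54.5, 37.8 and 29.7 CPM in the challenged knockouts. The challenged knockouts were all above the unchallenged controls, and challenged control 2 was within them. The log2 fold change was 1.04 with challenge (SE 0.37, edgeR adjusted p = 0.258) and 0.53 without challenged control 1; between genotypes it was -0.36 (SE 0.36, adjusted p = 0.789) and 0.15 without that library.

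Asprv1, for the protease that processes filaggrin, was the most abundant of the 35 genes in the unchallenged controls also per length of merged exons, at 1448 ± 534 CPM per kilobase (SD, n = 3). Tgm2 followed at 58.8 ± 9.92 CPM per kilobase and Sprr1a at 31.9 ± 22.5, and neighbours from Tgm2 down through Sprr1a, Tgm1 (20.9 ± 8.07), Tgm5 (16.5 ± 1.48) and Klk10 (14.4 ± 6.29) did not differ beyond their spread. Asprv1 was at 1710, 1817 and 3191 CPM in the unchallenged controls, 1520, 2783 and 3241 CPM in the challenged controls and 1646, 3101 and 2611 CPM in the challenged knockouts. In every group, challenged or not, replicate 1 was lowest, and the groups overlapped (log2 fold change 0.17 with challenge, SE 0.36, and -0.04 between genotypes, SE 0.36). Casp14, for the caspase of terminal keratinocyte differentiation, was at 5.65, 3.29 and 6.61 CPM, then 3.28, 3.72 and 4.62 CPM, then 5.41, 5.48 and 5.14 CPM. The knockouts lay above the challenged controls but within the unchallenged ones, with a log2 fold change between genotypes of 0.47 (SE 0.31, edgeR adjusted p = 0.716).

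Between challenged knockouts and challenged controls no direction was shared by the 23 members. The edgeR test called 0 of 23 members and 0% of all genes, and the fit with the replicate block called 0 members and 0.141% of genes. DESeq2 called 3 of the 23 members that passed its own filter, Krtdap and Sbsn as higher and Lce3a as lower, and 1.58% of genes. Krtdap is not among the 23 tested with edgeR. At an unadjusted p under 0.05, 4 of 23 members passed (17.4%, against 8.49% of genes): Sbsn and Sprr2a2 were higher and Klk11 and Lce3a lower. Groups did not overlap for 3 members (13%, against 12.9% of genes), with Casp14 and Sbsn higher and Klk11 lower. The median log2 fold change was -0.04, and 11 of 23 were above 0.

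**Figure D4:**
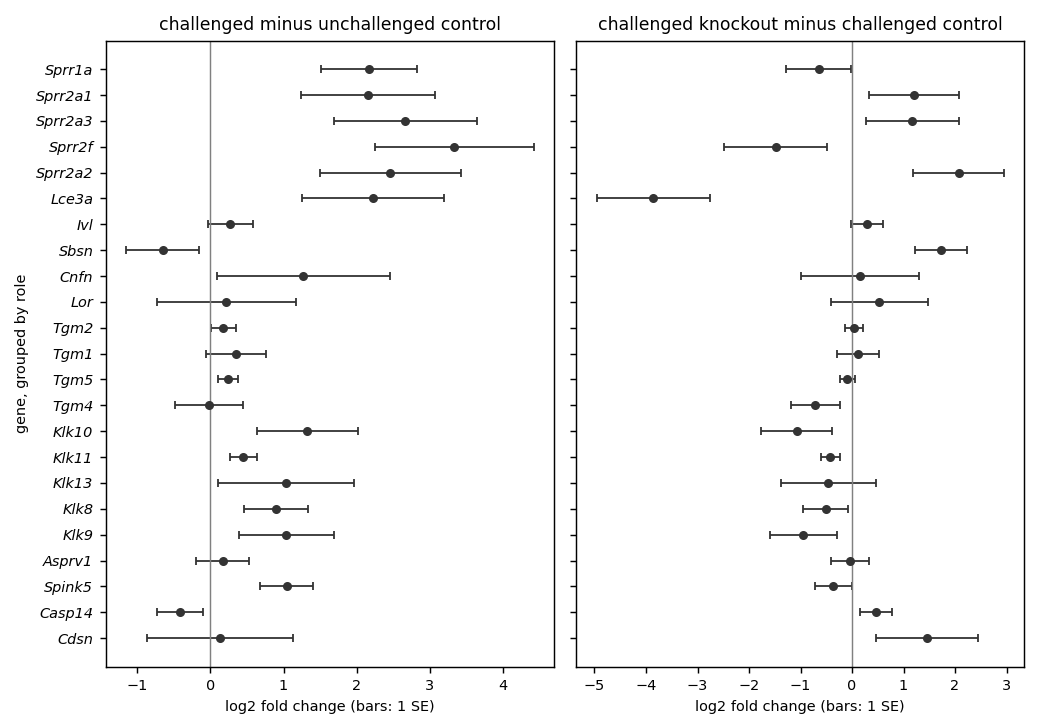
Log2 fold change with its standard error (1 SE bars) for the 23 tested genes, grouped by role, with challenge in controls (left) and between challenged knockouts and challenged controls (right). The 5 Sprr genes and Lce3a lie at 2.16 to 3.34 on the left, while on the right Lce3a is lowest at -3.86.

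Challenged knockouts were also compared with unchallenged controls, a contrast that shares libraries with both others. The edgeR test and the fit with the replicate block each called 0 of 23 members and 0% of genes. DESeq2, with its own filter, called 2 of 25 members, Krtdap and Sprr2a2, and 0.089% of genes. At an unadjusted p under 0.05, 4 members passed (17.4%, against 2.9% of genes), all of them higher: Sprr1a, Sprr2a1, Sprr2a2 and Sprr2a3. Groups did not overlap for 4 members (17.4%, against 6.59% of genes): Sbsn, Spink5 and Sprr2a2 were higher and Lce3a lower. For Sprr2a2 the log2 fold change was 4.53 (SE 1.01, edgeR adjusted p = 0.999, DESeq2 adjusted p = 0.000185). The Sprr2a genes share transcript sequence, so they are not separate results in these shares. Their sum overlapped between the groups: knockout 3 was at 6.80 CPM, within the 2.20 to 10.1 CPM of the unchallenged controls.

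Challenged control 1 was the highest library for 14 of the 35 genes and for 11 of the 23 tested, against 22.3% of all genes tested; beside Klk10, Klk13, Lce3a, Spink5 and Sprr2f they include Sprr1a, Cnfn, Klk11 and Tgm4. Its Ifng level was 21.0 CPM and its Osm level 21.7 CPM, against 2.28 CPM or less and 0.969 CPM or less in the other 8 libraries. Ugcg, which begins glucosylceramide synthesis, was at 132 CPM there and at 14.8 to 32.4 CPM elsewhere. The part of these cytokines in the result was not tested. The 5 Sprr genes were higher with challenge without any 1 library, with log2 fold changes of 1.72 to 2.92 for Sprr1a, 1.79 to 4.42 for Sprr2f and 1.78 to 3.70 for the 3 Sprr2a genes.

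**Figure D5:**
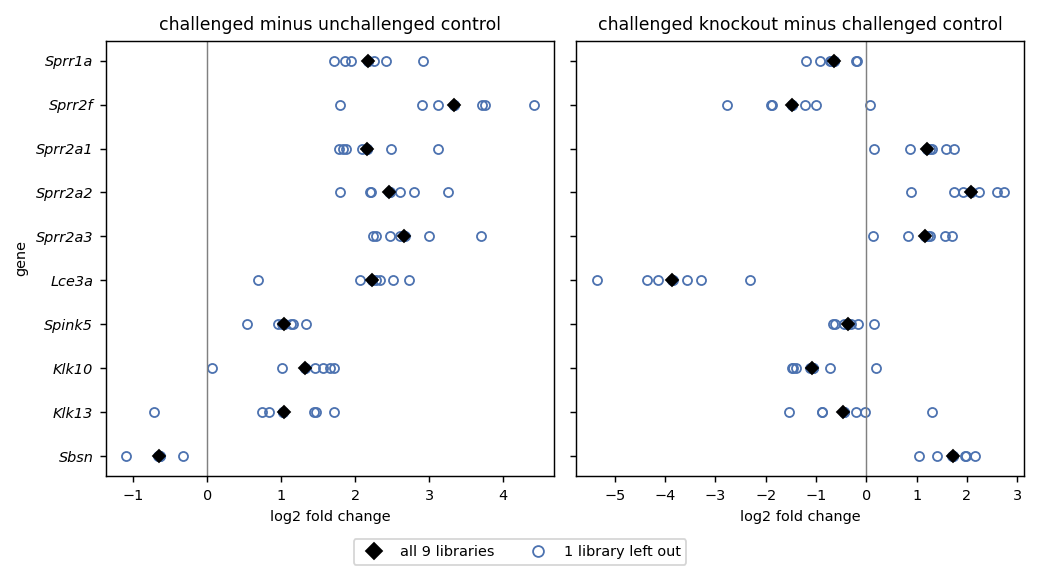
Log2 fold change of 10 genes with all 9 libraries (filled diamonds) and with each library left out in turn (open circles), with challenge in controls (left) and between genotypes under challenge (right). On the left the Sprr genes stay at 1.72 or more, and Klk13 falls to -0.72 when challenged control 1 is left out.

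No gene of 5 further lists passed the edgeR test. After the filter on low counts the lists held 11 of 11 partner proteins of the envelope, 12 of 16 genes of its lipids, 10 of 11 of shedding, 20 of 21 regulators of keratinocyte differentiation and 14 of 19 cytokines that act on epithelium, and edgeR called 0 of these in any contrast. With challenge DESeq2 called as higher 1 of 11 partner genes (Csta1), 1 of 20 regulators (Prdm1) and 2 of 14 cytokines (Ifng, Tnf). It called none of the lipid and shedding genes there, beside 4.66% of all genes in either direction. As lower in the knockouts than in the challenged controls it called 1 of 11 (Csta1), 1 of 20 (Prdm1) and 1 of 14 (Il1a). There it called 1.58% of all genes. So few calls are not a result about the lists. The median log2 fold changes of the tested genes with challenge were 0.18, -0.0032, 0.02, 0.23 and 1.26, against -0.01 over all genes. Csta1, for the protease inhibitor cystatin A, was at 69.8 to 93.8 CPM in the unchallenged controls, 119, 158 and 135 CPM in the challenged controls and 71.2 to 95.7 CPM in the challenged knockouts. Challenged controls thus lay above both other groups, with a log2 fold change of 0.81 with challenge (SE 0.18, edgeR adjusted p = 0.107, DESeq2 adjusted p = 0.00342) and -0.75 between genotypes under challenge (SE 0.18, adjusted p = 0.338, DESeq2 adjusted p = 0.0231). Prdm1, for a repressor that acts in terminal differentiation, was at 44.5 to 58.9 CPM, then 112, 72.2 and 70.4 CPM, then 40.2 to 53.6 CPM. Its log2 fold change with challenge was 0.78 (SE 0.22, edgeR adjusted p = 0.172, 0.0268 with the replicate block, DESeq2 adjusted p = 0.0381). Between genotypes under challenge it was -0.92 (SE 0.22, edgeR adjusted p = 0.338, DESeq2 adjusted p = 0.0223), and the challenged controls did not overlap either other group. Prdm1 is also expressed by immune cells, and the 9 T cell genes listed summed to 16.8 to 26.7 CPM in the unchallenged controls, 193 to 342 CPM in the challenged controls and 41.1 to 74.4 CPM in the challenged knockouts; their part in the result was not tested.

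Markers of other tissue also differed in level between the groups. Skeletal muscle genes summed to 1365 to 5312 CPM in the unchallenged controls, 324 to 888 CPM in the challenged controls and 2259 to 3780 CPM in the challenged knockouts, so that the challenged controls were lowest. Conjunctival epithelial genes summed to 24228 to 53049 CPM over the 9 libraries, with overlapping groups. The genes of stress keratins (Krt6a, Krt6b, Krt16, Krt17) summed to 4453 to 5800 CPM in the unchallenged controls, 5494 to 8125 CPM in the challenged controls and 4712 to 7477 CPM in the challenged knockouts, also with overlap. Their part in the differences of the Sprr and Klk genes was not tested.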

How the data were processed

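Messenger RNA of 9 libraries was sequenced, and the authors deposited raw read counts per gene symbol for 20603 genes, with no gene under 2 counts in total. Per the submitters' processing notes HISAT2, Bowtie2 and DESeq2 were used with build mm39; no version is given in the sources used here, nor are the counting program and the strand. The deposited counts were fitted here with edgeR 4.0.16 (R 4.3.3, limma 3.58.1): TMM factors, filterByExpr on the 3 groups, and 1 quasi-likelihood fit over all 9 libraries, with two-sided p-values adjusted by Benjamini-Hochberg over 15613 genes at 0.05. The biological coefficient of variation was 31.7%. DESeq2 1.42.0, RLE factors, other filters, a fit of 2 groups only, the replicate block and each library left out were tried as alternatives, and the sum of the Sprr2a genes was added after seeing the data. The script was tested on simulated counts. No pair of libraries of a group was a copy: chi-square per gene was 29.6 or more.

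The replicate numbers were checked by correlating deviations from group means. Unchallenged and challenged controls of the same number gave 0.49, 0.29 and 0.55, against -0.47 to 0.09 for different numbers. The replicate block was fitted as an alternative. The main edgeR fit, which gave the printed fold changes and SEs unless stated, uses no pairing. With the block, edgeR adjusted p-values with challenge were 0.111 for Sprr1a, 0.0918 for Sprr2f and 0.917 for Klk13. The log2 fold change of Klk13 was then 0.23. Any pairing comes from the data, since no label explains the numbers.

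The 35 genes and all lists were chosen with earlier results of these data known. Values for every library are given for any gene called by edgeR, the 3 most abundant genes of each role, and in each contrast the 3 with the largest change at a mean of at least 1 CPM; other genes were chosen after their values were seen. Marker lists not described elsewhere were those of cornea, summing to 1513 to 4733 CPM per library, goblet cells, 107 to 1010 CPM, and gland acini, 2.96 to 8.94 CPM. Exon lengths and shared transcript stretches came from GENCODE vM21 and start-site windows from RefSeq, both on GRCm38. No coordinate was therefore joined to the counts, which use mm39. Windows of 33 of the 35 genes were in use, with a chromosome left out for the members but kept in the search of all windows.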

Additional observations from a re-analysis of the deposited data

How the results depend on the processing

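The 12 untested genes had few counts in most libraries, and for some, such as Krtdap, most counts lay in 1 library. The number of genes called with challenge was 10, and it was 770 with DESeq2, 267 with the replicate block, 20 with no count filter, 1 with only the 2 groups compared and 0 to 121 with each library left out; it was 0 without unchallenged control 2 or 3 and 121 without unchallenged control 1. Between genotypes it was 0, with DESeq2 242 and with the replicate block 22, among them Prdm1 (adjusted p = 0.0354), and for challenged knockouts against unchallenged controls it was 0, with DESeq2 14. The number of members called was 0 in each contrast and under each alternative except DESeq2, which called 1 with challenge, 3 between genotypes and 2 for challenged knockouts against unchallenged controls. Correlations between knockouts and controls of the same number were mixed, at 0.34, -0.18 and 0.36 to challenged and 0.32, -0.09 and 0.38 to unchallenged controls. Pairs of different number reached as much: knockout 2 gave 0.43 to challenged control 3 and 0.37 to unchallenged control 3. The numbers therefore do not mark a clear pairing of knockouts with challenged or unchallenged controls.

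In that last contrast the replicate block turned Klk10 to -0.051 and Klk13 to -0.064 on the log2 scale. With each library left out, log2 fold changes with challenge crossed 0 for Asprv1 (-0.059 to 0.52), Cnfn (-0.50 to 3.49), Klk13 (-0.72 to 1.71) and Tgm1 (-0.065 to 0.68). Between genotypes they did so for Asprv1 (-0.30 to 0.19), Cnfn (-0.54 to 1.93), Klk10 (-1.47 to 0.19), Klk13 (-1.54 to 1.29), Spink5 (-0.66 to 0.15), Sprr2f (-2.78 to 0.072), Tgm1 (-0.16 to 0.53) and Tgm2 (-0.018 to 0.12). For challenged knockouts against unchallenged controls they did so for Asprv1 (-0.071 to 0.48), Casp14 (-0.19 to 0.27), Klk10 (-0.13 to 0.60), Klk11 (-0.10 to 0.13) and Klk13 (-0.51 to 1.26). DESeq2 moved Sprr1a, Lce3a, Sbsn and Sprr2a2 past the threshold in the contrasts named above, and the cause was not tested. In 783 of 815 comparisons with an alternative, the log2 fold changes of named genes kept their direction and side of the threshold, and summed CPM of groups of genes and lists moved by less than 1 SD when total counts replaced TMM factors.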
